A study of Mus musculus with 56 samples.

Results

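Medullary thymic epithelial cells (mTECs) of the late phase of postpartum thymic regeneration were compared with mTECs of the early phase. Samples were chosen by their labels alone, as those of cell type mTEC taken at D16, D20, D24 or D28 after parturition (late, 4 samples) or from D0 to D12 (early, 18 samples), which gives 22 of the 56 samples of the series. All of these mice were B6.SJL females (B.6SJL-Ptprca Pep3b/BoyJ-CD45.1) that had been mated with BALB/cJ males and whose pups were taken away at birth, since suckling delays the regrowth of the thymus. They differed in the day of sampling, and no age is given. The thymi were digested with papain, DNase and collagenase IV, EpCAM+ cells were enriched on beads, the cells were sorted into Trizol, and each sample came from 1 mouse. Each late day had 1 sample, as had D1, D2, D4, D5, D8 and D10, while D0, D3, D6 and D12 had 3, so the spread within the late phase is a spread between days as well as between mice. Age-matched non-pregnant controls (NPC, 3 mTEC samples) and mTECs of pregnant females at D-2 (3 samples) are given for reference, and 22 samples of cortical cells (cTECs) from the same days serve as a comparison. The study set the limit between the phases from counts of thymic cells, not from RNA.

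mTECs present self-antigens to newly selected thymocytes. Immature mTECs mature under signals of the TNF receptor family and NF-kB into cells with much MHC class II, CD80 and AIRE, the transcriptional regulator that lets mTECs transcribe genes otherwise restricted to single peripheral tissues. Some then go on to mimetic states that resemble cornified keratinocytes, tuft cells, microfold cells or other epithelia. FOXN1, the master regulator of thymic epithelium, drives genes such as *Psmb11*, *Prss16* and *Ccl25* most strongly in cTECs.

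Total expected counts per mTEC sample (the reads that RSEM assigned to genes, not normalized) ran from 4561208 to 108547384 in the early phase, with a median of 14369671, and from 24468884 to 46220373 in the late phase. Mitochondrial transcripts took 1.35% to 3.21% of the counts in early and 1.81% to 3.07% in late samples. The sum of the 10 TEC identity genes (among them *Epcam*, *Krt5*, *Krt8* and *Ccl21a*) was 14400 to 20730 FPKM in the late samples and 14550 to 25640 FPKM in the early ones, where FPKM is the level per gene length and sequencing depth. The D16 library stood apart from the other late libraries. Its TMM factor, which scales for RNA composition, was 1.14 against 1.00 to 1.03, and of all mTEC samples it was most like NPC replicate 3 (Pearson's r = 0.985 across genes, which are not independent replicates). The early libraries D0 replicate 2, D3 replicate 1 and D3 replicate 2 lay farthest from the rest on the first principal components. In bulk RNA such as this, fewer cells of a type and less RNA per cell cannot be told apart.

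Few genes separated the late from the early samples. limma-voom tested 17743 genes, and 11 of these (0.062%) differed 2-fold or more with a p, adjusted by Benjamini-Hochberg, no higher than 0.01, 10 higher (0.0564%) and 1 lower (0.00564%) in the late phase, while 3541 had an unadjusted p under 0.05. The edgeR quasi-likelihood test passed 2 genes (1 higher, 1 lower) and 1 of them was among the 11, whereas the Wald test of DESeq2 passed 20, with 3 higher and 17 lower. The count was sensitive to single libraries. It was 46 without D0 replicate 2, 46 without D28, 40 without D12 replicate 2, 36 without D3 replicate 3, 7 without D6 replicate 2, 5 without D5, 4 without D8 and 2 without D4. The median log2 fold change of all genes was −0.01 and the median of its size was 0.36. Of all genes tested, 23 (0.13%) had all 4 late samples above all 18 early samples, and 5 (0.0282%) had all 4 below.

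*Glul*, which encodes glutamine synthetase, was the 1 gene past both limits of limma-voom that was lower. In the late samples its FPKM was 148, 130.5, 158 and 142, in order of day, against a lowest value of 171, a median of 281.5 and a highest value of 349.9 in the early samples. Every late sample was below every early sample, and also below the 3 NPC samples (172.5 to 233). The log2 fold change was −1.01 (standard error (SE) 0.14, limma-voom adjusted p = 0.00157, 0.00459 from edgeR and 6.18e-10 from DESeq2). *Glul* (ENSMUSG00000026473.15) lies on the plus strand of chromosome 1 of GRCm38, from 153899944 to 153909723. Leaving out D0 replicate 2, D2, D3 replicate 3, D4, D5, D16 or D20 took its fold change just under 2 (log2 fold changes of −0.95 to −0.99), while its adjusted p stayed at or under 0.00771 in all 22 cases.

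*Nrp2*, a receptor for VEGF-C and for class 3 semaphorins, rose. Its FPKM was 9.36, 6.92, 5.77 and 6.14 at D16, D20, D24 and D28, against a lowest value of 1.44, a median of 3.07 and a highest value of 5.16 in the early samples. All late samples were above all early samples and above the NPC samples (2.25 to 5.27). The log2 fold change was 1.05 (SE 0.18, limma-voom adjusted p = 0.0057, 0.0595 from edgeR). *Nrp2* (ENSMUSG00000025969.15) is on the plus strand of chromosome 1, from 62703285 to 62818695. Its call was lost without D4, D8, D16 or D20, with adjusted p-values of 0.0127 to 0.0245. *Glul* and *Nrp2* were the 2 named protein-coding genes that passed with no overlap between the phases and a mean of at least 5 FPKM.

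*Slc7a11*, the cystine-glutamate antiporter that feeds glutathione synthesis, rose from a median of 14.2 FPKM (10.1 to 40.0) in the early phase to 29.1, 52.6, 36.0 and 44.3 FPKM on the 4 late days in turn. The phases overlapped, since 2 early samples reached the lowest late value. The log2 fold change was 1.06 (SE 0.18, limma-voom adjusted p = 0.0057, 0.0337 from edgeR). *Slc7a11* (ENSMUSG00000027737.10) is on the minus strand of chromosome 3, from 49892526 to 50443614. Its call was lost without D4, D5, D8, D20, D24 or D28, where the log2 fold change was 0.97 to 1.08 and the adjusted p 0.0106 to 0.0202.

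The RefSeq promoters (GRCm38.p6, 250 bases before to 50 after the annotated start) of these genes are shown because they belong to the gene called lower and to a pair of genes that rose at a level well above 0. Capitals mark matches, on either strand, to CCAAT (the box bound by NF-Y), GACGC (a core reported for FOXN1) or the interferon-stimulated response element core (a GAAA repeat with a short spacer). The TATA box TATAAA, the NF-kB site core and the letters TTTGAA were also searched for and had no match in them. The *Glul* window is chr1:153899679-153899978 (plus strand), the *Nrp2* window chr1:62703067-62703366 (plus) and the *Slc7a11* window chr3:50443564-50443863 (minus).
Glul: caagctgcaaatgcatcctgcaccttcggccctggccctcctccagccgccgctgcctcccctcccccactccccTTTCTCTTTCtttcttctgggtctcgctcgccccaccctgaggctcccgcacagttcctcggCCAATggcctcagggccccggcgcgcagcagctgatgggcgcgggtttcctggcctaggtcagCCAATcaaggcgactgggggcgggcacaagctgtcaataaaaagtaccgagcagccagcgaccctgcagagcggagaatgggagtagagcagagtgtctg
Nrp2: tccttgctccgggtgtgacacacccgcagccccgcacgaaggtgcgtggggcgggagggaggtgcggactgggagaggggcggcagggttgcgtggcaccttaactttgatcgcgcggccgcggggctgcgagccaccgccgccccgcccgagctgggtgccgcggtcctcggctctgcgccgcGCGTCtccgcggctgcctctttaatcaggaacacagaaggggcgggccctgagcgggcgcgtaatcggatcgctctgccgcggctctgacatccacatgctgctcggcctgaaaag
Slc7a11: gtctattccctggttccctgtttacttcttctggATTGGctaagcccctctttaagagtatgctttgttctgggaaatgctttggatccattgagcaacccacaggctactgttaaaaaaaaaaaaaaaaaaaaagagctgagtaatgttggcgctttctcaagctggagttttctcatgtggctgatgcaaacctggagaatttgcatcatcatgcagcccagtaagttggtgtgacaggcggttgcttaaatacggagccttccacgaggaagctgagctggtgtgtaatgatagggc
The *Glul* window held 2 CCAAT boxes and 1 match to the interferon-stimulated element core, *Nrp2* 1 GACGC match and *Slc7a11* 1 CCAAT box. Of 12336 tested genes with a RefSeq promoter, 38.5% had CCAAT, 42.3% GACGC and 3.1% the interferon-stimulated element core, while TATAAA was in 8.7%, TTTGAA in 12.5% and the NF-kB site core in 1.8%. The ratio of observed to expected CpG was 0.99 for *Nrp2*, 0.56 for *Glul* and 0.27 for *Slc7a11*, against a median of 0.72. Of the 10 genes called higher, 7 matched a promoter by symbol, with a median ratio of 0.36, and 4 of these 7 had CCAAT, 2 TTTGAA and 1 GACGC. The windows of *Gm5930* and *Gsap*, both with CCAAT, lie outside the annotated bounds of the genes tested. These matches are a description of letters in these windows.

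*Ccn2*, a matricellular protein also known as connective tissue growth factor, rose. Its FPKM was 16.5, 16.3, 8.86 and 14.0 at D16, D20, D24 and D28, and 3.5 in the median early sample. D3 replicate 3, with 15.2 FPKM, was the only early sample that reached the lowest late value. The log2 fold change was 1.87 (SE 0.29, limma-voom adjusted p = 0.00358, 0.204 from edgeR), and limma-voom called it whichever of the 22 samples was left out. NPC samples had 4.21, 5.13 and 16.1 FPKM.

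*Neat1*, the long non-coding RNA that builds nuclear paraspeckles, rose with a log2 fold change of 1.68 (SE 0.29, limma-voom adjusted p = 0.00618, 0.0132 from edgeR). By day, its late FPKM was 176, 39.4, 48.2 and 27.1, against a median of 14.1 (9.02 to 59.4) in the early samples. NPC samples had 16.7, 17.1 and 108 FPKM. The D16 sample stood far above the other 3 late samples, and without it the log2 fold change was 1.09 (limma-voom adjusted p = 0.0177). Its call was also lost without D2, D4, D5, D6 replicate 2, D8 or D24 (adjusted p of 0.0111 to 0.0134).

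The other protein-coding increases were small in level or overlapped with the early samples. *Car12*, a membrane carbonic anhydrase, had 5.61, 9.85, 10.8 and 5.52 FPKM in the late samples and a median of 2.24 (0.56 to 33.4) in the early ones, with a log2 fold change of 1.30 (limma-voom adjusted p = 0.00618). *Clca3b*, a member of the calcium-activated chloride channel regulator family with close relatives beside it on chromosome 3, had 14.6, 12.7, 5.99 and 9.11 FPKM and an early median of 3.67 (log2 fold change 1.46, limma-voom adjusted p = 0.00683), and reads can be split between such relatives. *Slc28a2*, a sodium-coupled nucleoside transporter that also has a near-identical neighbour, had 8.42, 12.1, 9.92 and 5.85 FPKM and an early median of 0.51. Its highest early value, 10.3 FPKM, was that of D12 replicate 3. *Gsap*, a regulator of gamma-secretase, had 7.67, 5.77, 5.28 and 8.72 FPKM, within the early range of 1.83 to 20.6. The adjusted p of these 4 genes from edgeR was 0.128 to 0.476. The call was lost in 8 of 22 cases with 1 sample left out for *Car12*, 10 for *Clca3b*, 4 for *Slc28a2* and 13 for *Gsap*, with an adjusted p of at most 0.0386.

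*Mir142hg* is the host transcript of miR-142, a microRNA known from blood cells. The NPC samples had 0, 3.47 and 14.5 FPKM of it. *Mir142hg* had 10.3, 8.16, 26.7 and 16.6 FPKM at D16, D20, D24 and D28 and at most 4.75 in the early samples, with no overlap. Its log2 fold change was 4.17 (SE 0.68, limma-voom adjusted p = 0.0057, 0.192 from edgeR), and the call was lost without D4 (adjusted p = 0.0104) or D24 (0.0214). The 20 thymocyte markers summed to 80.8, 53.2, 105 and 89.1 FPKM in the same samples (early 42.4 to 149), and the 16 myeloid and dendritic markers to 229, 116.5, 102 and 87.1 FPKM (early 21.6 to 154.5). The part of these cells in the *Mir142hg* values was not tested. *Gm5930*, a predicted protein-coding gene, had 2.17, 3.84, 8.25 and 1.71 FPKM late and 0 to 0.53 FPKM early, so that its fitted log2 fold change of 5.51 rests on the offset that voom adds to counts near 0. It passed the filter on low values through its late samples, so its call was set in part by that filter. Without D24 its adjusted p was 0.0101 (limma-voom).

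**Figure D1:**
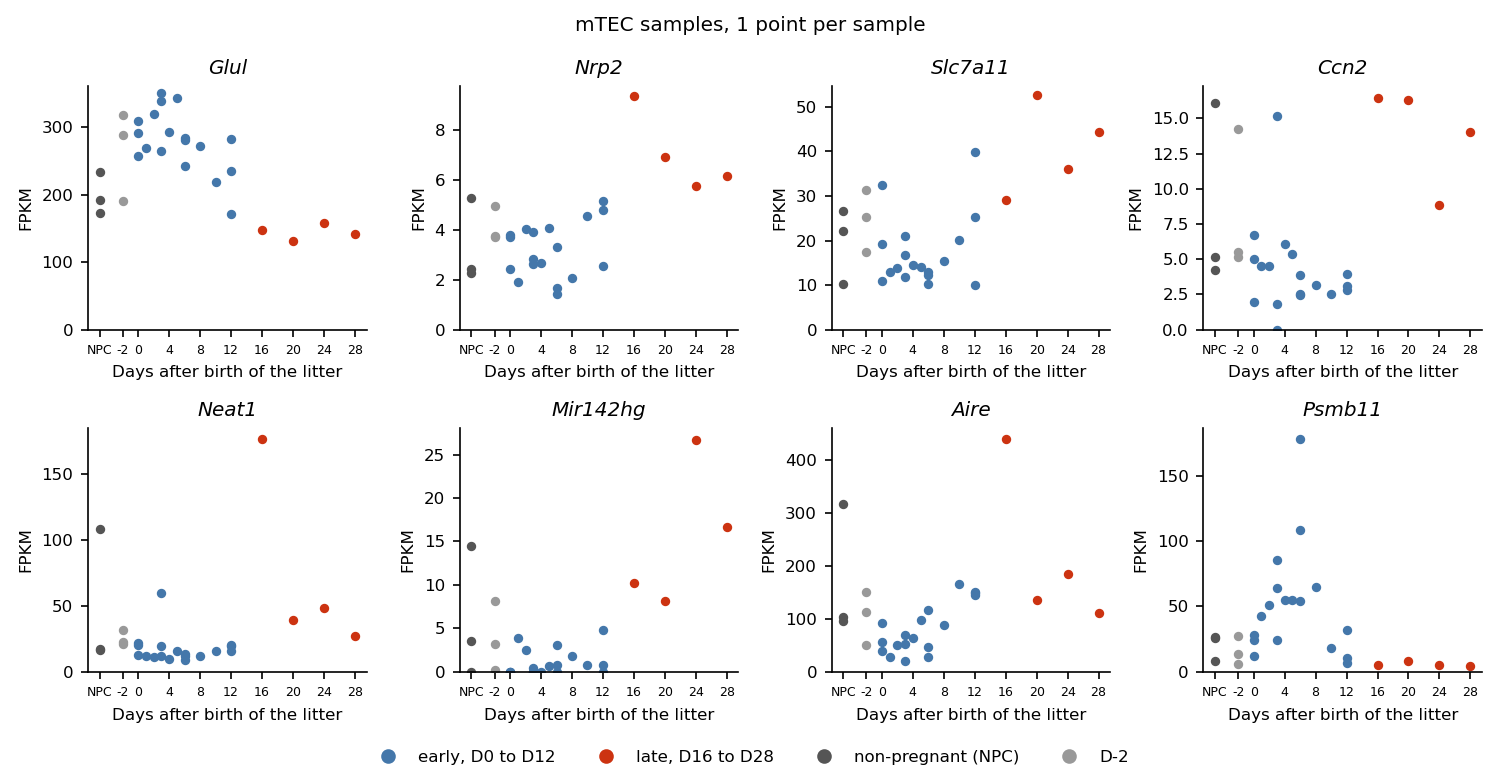
FPKM of 8 genes in each mTEC sample (1 point per sample) by day after birth of the litter, with non-pregnant controls (NPC) and D-2 at the left. All 4 late samples of *Glul* lie below, and those of *Nrp2* and *Mir142hg* above, every early sample, whereas *Aire* is highest at D16 (439 FPKM) and *Psmb11* is at 6.8 to 32.0 FPKM at D10 and D12.

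At an adjusted p of at most 0.05, 184 genes passed with a 2-fold change (1.04% of genes tested), 148 higher (0.834%) and 36 lower (0.203%) in the late phase, of which edgeR at the same threshold passed 8 and DESeq2 20. On simulated data, 11.5% of the limma-voom calls were false at the 0.01 threshold and 36.7% at 0.05. The same shares for edgeR were 3.9% and 11.3%, so both tools made more false calls than either threshold allows. Genes without an edgeR call are less certain. The simulated counts used the spread per gene that edgeR had estimated, a setting that may favour edgeR. The genes named here from this looser threshold were chosen after their values were seen. Among the 27 lower genes with at least 5 FPKM in the early phase, *Hes6*, a transcriptional regulator of the Hes family, had 80.5, 74.6, 76.4 and 71.8 FPKM late against 88.5 to 283 early, with no overlap (log2 fold change −1.30, limma-voom adjusted p = 0.0102, 0.0203 from edgeR). *Lypd1*, a Ly6-family modulator of nicotinic receptors, had 17.4 to 30.9 FPKM late against a median of 66.9 early (−1.54, adjusted p = 0.0101). *Spock2*, a matrix proteoglycan, had 20.99 to 35.3 against 83.1 (−1.46, adjusted p = 0.0159), and fibronectin (*Fn1*) 25.5 to 72.6 against 108 (−1.23, adjusted p = 0.0237). No late sample of these 4 genes reached the mean of the early ones.

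Among the 78 higher genes with at least 5 FPKM late were the following, picked after their values were seen, while no member of the microfold- and enterocyte-like list passed. *Cdh17*, the liver-intestine cadherin, had 20.4, 15.1, 8.46 and 12.3 FPKM late and a median of 2.94 early (log2 fold change 1.52, limma-voom adjusted p = 0.0102, 0.171 from edgeR). The polymeric immunoglobulin receptor *Pigr* had 30.4, 50.2, 31.6 and 32.6 FPKM against 12.2 (1.16, adjusted p = 0.0138), and 1 early sample, at 31.5 FPKM, reached the lowest late value. The mucin *Muc13* (1.13, adjusted p = 0.0392), the lectin *Itln1* (1.57, adjusted p = 0.048) and the antimicrobial lectin *Reg3b* (2.52, adjusted p = 0.0466) were higher as well, with edgeR adjusted p-values of 0.198, 0.714 and 0.733. Of matrix and adhesion genes, *Col14a1* had 22.5 to 31.4 FPKM late against a median of 7.82 early (1.40, adjusted p = 0.0102). Fibrillin-1 (*Fbn1*) had 23.7 to 38.7 against 11.6 to 20.3 and *Cd44*, the hyaluronan receptor, 38.7 to 54.3 against 12.04 to 37.4, and in both the phases did not overlap although the fold change stayed under 2. *Nos2*, the inducible nitric oxide synthase, had 32.1 to 62.2 against a median of 14.6 (1.22, adjusted p = 0.048), and *Csf2*, which encodes GM-CSF, 3.18 to 11.5 against 0.83 (3.77, adjusted p = 0.0159). *Ccl21b* and *Gm10591* had identical values and belong to a family of near-identical copies, and their values are uncertain.

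The 30 gene lists were read against the background of all genes tested, of which 48.8% had a higher late mean and whose median log2 fold change was −0.01. No member of any list passed the main threshold. The list with the largest number of members past the looser threshold was that of *Foxn1* and cTEC genes, of which 12 of 14 were lower in the late phase with a median log2 fold change of −0.99. Its 5 members past the looser threshold were *Psmb11*, *Ccl25*, *Cxcl12*, *Tbata* and *Pax1*. The thymoproteasome subunit *Psmb11* had 4.92, 8.24, 5.06 and 4.51 FPKM late against a median of 47.0 (6.8 to 178) early (log2 fold change −2.81, SE 0.72, adjusted p = 0.042). The chemokine *Ccl25* had 329, 179, 148 and 191 FPKM against 540.5 (−1.47, adjusted p = 0.0287), and *Cxcl12*, the ligand of CXCR4, 40.2 to 55.4 against 109 (−1.05, adjusted p = 0.0411). *Foxn1* itself had 54.3, 71.4, 92.8 and 80.8 FPKM against 128 (62.2 to 260.2), a log2 fold change of −0.91 (adjusted p = 0.042), and the thymocyte growth factor *Il7* had 57.9 to 77.3 against 129 (−0.93, adjusted p = 0.0411). *Psmb11*, *Ccl25*, *Tbata*, *Prss16*, *Dll4*, *Ly75* and *Enpep* are also the 7 cTEC identity markers, whose sum was 940.5, 456, 429 and 564 FPKM in the late samples and 650.3 to 4485 in the early ones. The part of cTECs carried along in the sort was not tested.

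**Figure D2:**
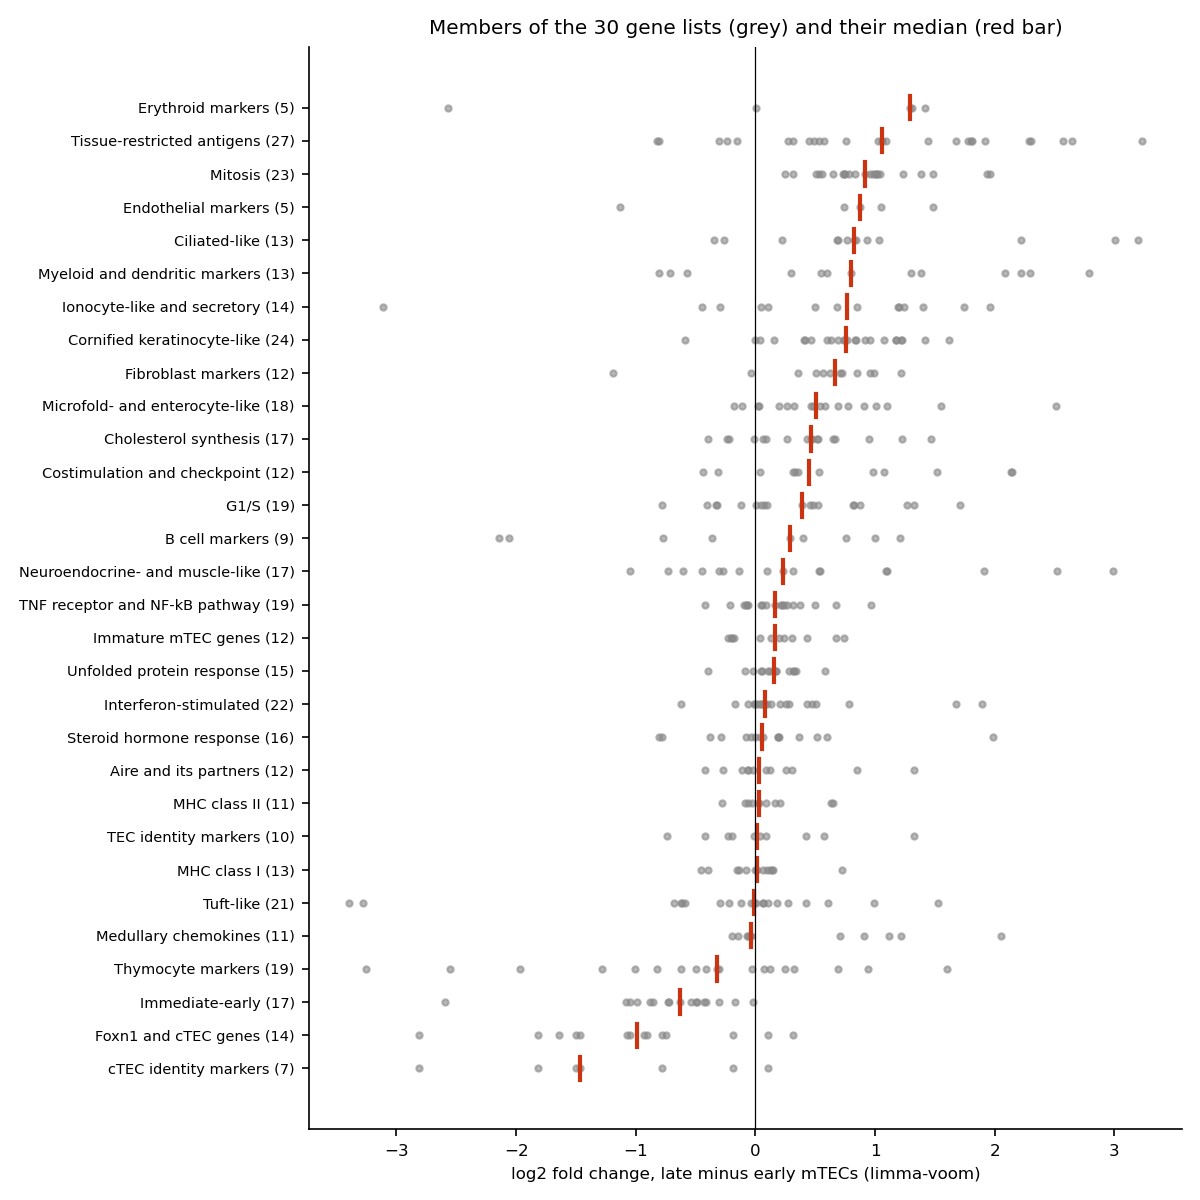
Log2 fold change, late minus early, of each tested member (grey points) of the 30 gene lists, ordered by their median (red bar), with the number of members tested in parentheses. The cTEC identity markers have the lowest median (−1.47), and the mitosis list, whose 23 members are all above 0, has a median of 0.92.

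For antigen presentation, *Aire* had 439, 135, 184 and 111 FPKM at D16, D20, D24 and D28 against a median of 66.5 (20.03 to 165) in the early samples, a log2 fold change of 1.33 that missed the looser threshold (SE 0.38, adjusted p = 0.0599). NPC samples had 95.2, 102.5 and 317 FPKM of *Aire*. Of *Aire* and its partners, 6 of 12 were higher with a median of 0.03 (0.17 without D16), and *Fezf2*, a second regulator of tissue-restricted genes, had 134.5 to 195 FPKM against 108.5 to 190.4. Of 27 tissue-restricted antigens 22 were higher, with a median log2 fold change of 1.06 (0.77 without D16). *Fabp9*, a testis fatty-acid-binding protein, had 38.3, 28.2, 34.9 and 30.7 FPKM against a median of 5.22 (0 to 37.0). Its log2 fold change was 2.31 (limma-voom adjusted p = 0.0118, 0.424 from edgeR). Transthyretin (*Ttr*) had 5.32, 4.79, 3.13 and 0.94 FPKM against a median of 0.365 (0 to 3.48), and 2.66 to 6.09 in the NPC samples. Its log2 fold change was 3.23 (limma-voom adjusted p = 0.0442, 0.551 from edgeR). The most abundant antigen, the milk casein *Csn2*, had 551.5, 376, 240 and 245 FPKM against 131 (27.2 to 443), and did not pass (1.09, adjusted p = 0.127). Of 12 costimulatory and checkpoint genes 10 were higher (median 0.44). The CD28 ligand *Cd80* had 46.5, 21.02, 23.3 and 21.7 FPKM against 8.36 (1.07, adjusted p = 0.0358), and *Cd86* 10.6, 6.28, 13.4 and 9.38 against 1.78 (2.14, adjusted p = 0.0535). MHC class II (7 of 11 higher, median 0.03) and MHC class I (7 of 13, median 0.01) were near the background, and *Cd74*, the invariant chain, had 7519 ± 296 FPKM (SD, n = 4) late and 7048 ± 976 (SD, n = 18) early.

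*Cd40*, the receptor for CD40 ligand of T cells, showed how the unit matters. Its FPKM was 118, 81.2, 105 and 65.8 late against a median of 47.0, a log2 ratio of means of 1, while the fit of counts gave 0.53 (limma-voom adjusted p = 0.263). RSEM divided by an effective length of the gene that was lower by 0.41 on the log2 scale in the late samples. For *Sc5d*, of sterol synthesis, the same values were 1.09, 0.65 and −0.33, and for *Glul* −0.95, −1.01 and −0.01.

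Lists of the mimetic states differed among themselves. Of 24 cornified keratinocyte-like genes 22 were higher (median log2 fold change 0.75), and keratin 1 (*Krt1*) had 9.82, 10.5, 8.38 and 5.85 FPKM against a median of 3.62 (1.17, adjusted p = 0.0411). No other member passed. Its partner *Krt10* had 21.3 to 39.5 FPKM against 13.1 and did not pass (0.96, adjusted p = 0.109), and the desmosomal cadherin *Dsg3*, which is outside the list, had a log2 fold change of 2.19 (adjusted p = 0.0203). Of 18 microfold- and enterocyte-like genes 16 were higher (median 0.51, or 0.33 without D16), of 13 ciliated-like genes 11 (0.82), and of 14 ionocyte-like and secretory genes 11 (0.76), none of them past the looser threshold. Tuft-like genes were balanced, with 10 of 21 higher, a median of −0.01, and *Dclk1* at 28.2 ± 13.0 FPKM (SD, n = 4) against 24.6 ± 6.48 (SD, n = 18). Neuroendocrine- and muscle-like genes (10 of 17 higher, median 0.23, or 0.14 without D16) and immature mTEC genes (8 of 12, median 0.16, or 0.29 without D16) were also close to the background, with *Krt5*, a keratin of basal epithelium, at 2857 ± 929 FPKM (SD, n = 4) against 3062 ± 723 (SD, n = 18).

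All 23 mitosis genes were higher in the late phase, with a median log2 fold change of 0.92, and no member passed either threshold. *Mki67*, the antigen of cycling cells, had 27.9, 23.2, 21.6 and 16.9 FPKM against a median of 9.65 (3.58 to 32.2), a log2 fold change of 1.02 (adjusted p = 0.142). Of 19 G1/S genes 14 were higher (median 0.39, or 0.12 without D16). The remaining pathway lists were TNF receptor and NF-kB genes (13 of 19 higher, median 0.16), medullary chemokines (5 of 11, −0.04), interferon-stimulated genes (18 of 22, 0.08), the steroid hormone response (9 of 16, 0.05), the unfolded protein response (12 of 15, 0.15) and cholesterol synthesis (13 of 17, 0.47). Without D16 the same medians were 0.08, 0.05, 0.28, 0.02, 0.06 and 0.18. Of the interferon-stimulated genes, *Oas2* (1.90, adjusted p = 0.0207) and *Mx1* (1.68, adjusted p = 0.0227) passed the looser threshold. *Oas2* had 15.6, 2.33, 12.6 and 5.80 FPKM late, so that D20 and D28 were within the early range of 0 to 9.0. All 17 immediate-early genes were lower (median −0.63, or −0.97 without D16), led in level by *Fos* with 1850 FPKM at D16 and 722 to 856 at D20 to D28 against 510.4 to 4135 early (−0.99, adjusted p = 0.142). These genes are known to respond to tissue digestion, and the handling of each sample cannot be told apart from its day.

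Samples also differed within the early phase. The contrast of D10 and D12 with the days before was added after the data were seen. Within the early phase, the 4 samples of D10 and D12 differed from the 14 of D0 to D8 in 576 genes (3.25% of those tested with limma-voom, 506 or 2.85% higher and 70 or 0.395% lower), of which edgeR passed 41, and the count was 229 without D10, 139 without D12 replicate 2, 430 without D12 replicate 3 and 616 without D12 replicate 1. None of 17743 genes passed between the 4 late samples and those of D10 and D12 (limma-voom, with 4 samples against 4 and 1729 genes at an unadjusted p under 0.05; no other tool was run), and 254 passed between the late samples and those of D0 to D8. These contrasts share samples. For the mitosis list, the median log2 fold change was 1.94 for D10 and D12 against D0 to D8 and −0.33 for the late samples against D10 and D12. For tissue-restricted antigens the same medians were 1.64 and −0.32, for costimulation 0.70 and 0.14, for *Foxn1* and cTEC genes −0.92 and −0.21, and for immediate-early genes −1.36 and 0.35. *Aire* was at 145 to 165 FPKM at D10 and D12 and at 20.03 to 116 from D0 to D8 (log2 fold change 1.37, adjusted p = 0.00262), and *Mki67* at 22.2 to 32.2 against 3.58 to 19.3 (1.73, adjusted p = 0.000539). The cornified list had 0.23 for D10 and D12 against D0 to D8 and 0.40 for late against D10 and D12.

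None of the 11 genes past the main threshold passed for D10 and D12 against D0 to D8, where 3.25% of all genes did. The 11 genes were picked with D10 and D12 counted as early, which disfavours genes that had already changed by then. Their absence from that contrast therefore cannot show when they changed. Of the 184 genes past the looser threshold, 19 passed in it. The values of the 11 genes there differed in size and sign. In that contrast *Glul* had −0.46 (adjusted p = 0.0134), *Nrp2* 0.36 (0.318), *Slc7a11* 0.26 (0.449), *Ccn2* −0.72 (0.334), *Neat1* 0.11 (0.817) and *Car12* −0.35 (0.56). Between the late samples and those of D10 and D12 their log2 fold changes were −0.66, 0.84, 0.86, 2.39, 1.62 and 1.54, with adjusted p-values of 0.245 to 0.363, all from limma-voom. *Slc28a2* had 1.46 (0.484) and *Clca3b* 0.87 (0.0361) at D10 and D12 against D0 to D8, *Mir142hg* 0.54 (0.788) and *Gsap* 0.42 (0.315), while *Gm5930* had −1.53 (0.405). *Ccn2* was at 2.5 to 3.94 FPKM and *Neat1* at 15.4 to 19.9 FPKM in all D10 and D12 samples.

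**Figure D3:**
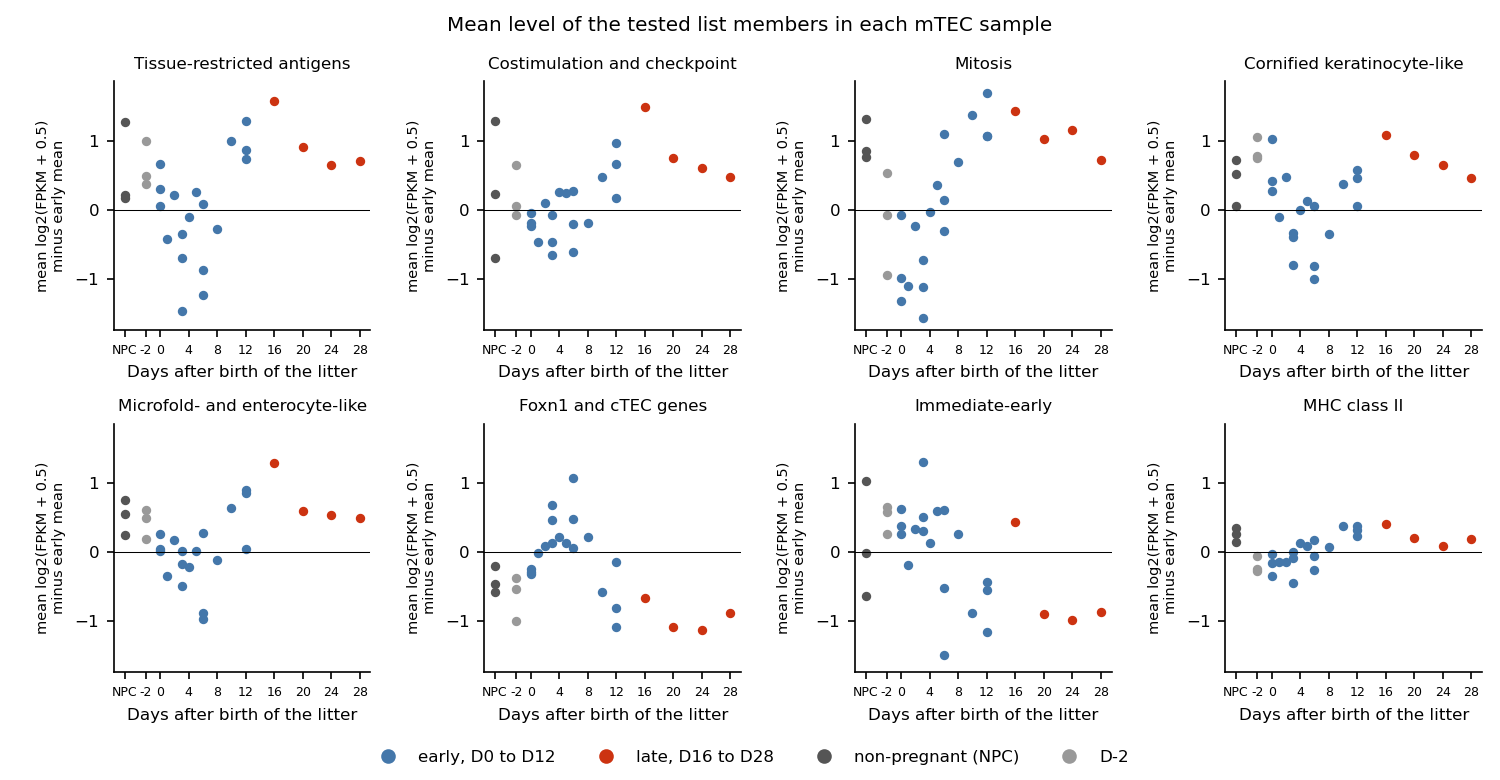
Mean log2(FPKM + 0.5) of the tested members of 8 lists in each mTEC sample, minus the mean of the 18 early samples, by day. The mitosis and tissue-restricted antigen lists are already high at D10 and D12, and the *Foxn1* and cTEC list is highest in a D6 sample (1.07) and at −0.68 to −1.14 in the late samples, while MHC class II stays between −0.45 and 0.40.

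In cTECs, 192 genes passed between the late and early phases (1.04% of 18394 tested), 4 of which were among the 11 of mTECs in the same direction, which is 36.4% of the mTEC and 2.08% of the cTEC genes. They were *Nrp2* (log2 fold change 2.13 in cTECs, adjusted p = 0.000162), *Neat1* (1.81, 0.00126), *Slc7a11* (1.41, 0.00234) and *Ccn2* (2.02, 0.00588). Of the 184 mTEC genes past the looser threshold, 25 passed in cTECs in the same direction. Rises described above in mTECs were thus in part shared. By limma-voom in cTECs, *Col14a1* had 2.18 (adjusted p = 2.05e-05), *Nos2* 2.17 (0.000119), *Cdh17* 2.86 (0.00472) and *Aire* 2.07 (0.00561). The levels of *Aire* and *Cdh17* were low in cTECs. Mean FPKM of *Aire* was 4.29 early and 13.9 late there, against 80.6 and 217.5 in mTECs. For *Cdh17* it was 1.31 and 5.04 against 4.48 and 14.1. The part of mTECs carried along in the sort of cTECs was not tested. *Krt1* (0.95, 0.585), *Reg3b* (1.79, 0.584) and *Fabp9* (0.06, 0.989) did not pass in cTECs. *Glul* had −0.42 in cTECs (adjusted p = 0.328), and its difference between the cell types, −0.56 (SE 0.29), did not pass (adjusted p = 0.522). The interaction of cell type and phase passed for 1 gene (0.00544% of 18394), *Vsir*, which encodes the checkpoint receptor VISTA. It had 10.4 to 17.4 FPKM in late and 8.83 to 26.5 in early mTECs (log2 fold change −0.04), and 14.4 FPKM on average in late against 10.1 in early cTECs (1.30), a difference of −1.32 (SE 0.22, limma-voom adjusted p = 0.00331, 0.68 from edgeR). The cTEC means in FPKM differ by less than 2-fold, which is less than the fitted change in counts. The cause of this gap was not tested. The count of interaction genes was 0 without the D16 mTEC sample and 2 without that of D28, and the sign of *Vsir* in mTECs changed with the setting (−0.04 here, 0.17 without D16). *Fabp9* (difference 2.41, SE 1.59, adjusted p = 0.646) and *Mir142hg* (4.28, SE 1.37, adjusted p = 0.234) had wide errors.

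**Figure D4:**
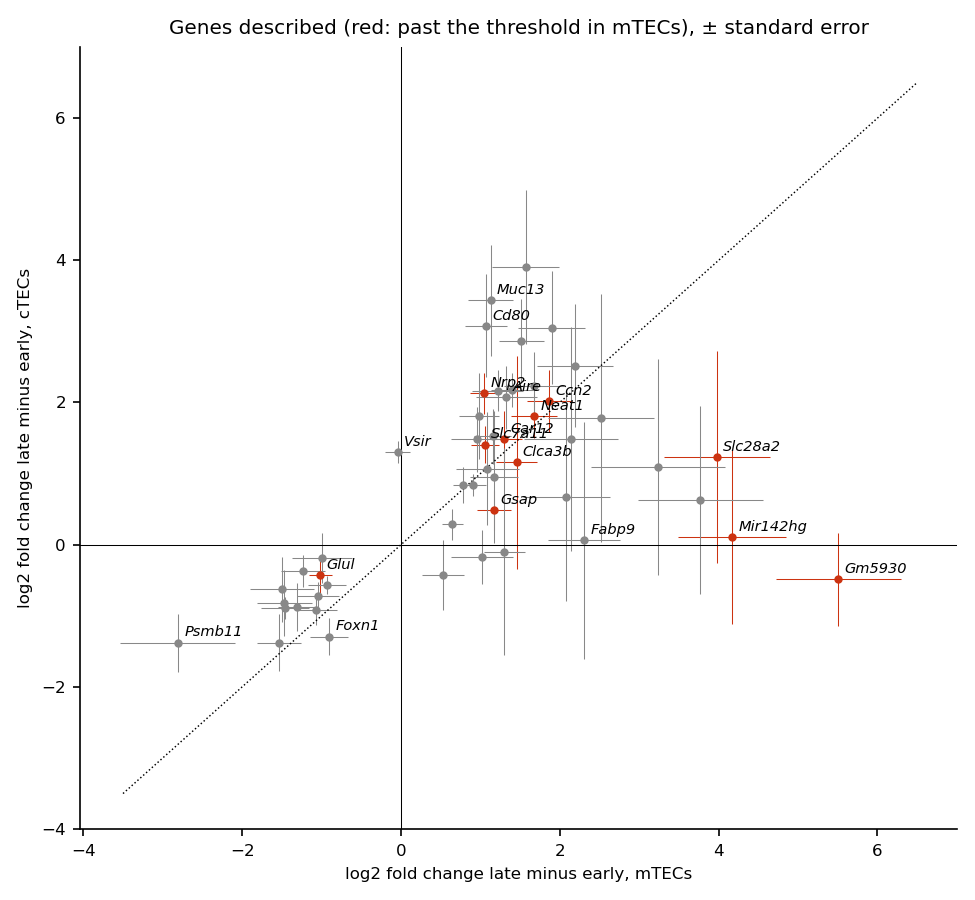
Log2 fold change, late minus early, of the genes described here in mTECs (horizontal) and cTECs (vertical), with standard errors from limma-voom and the line of equality dotted. *Nrp2*, *Neat1*, *Slc7a11* and *Ccn2* are above 1 in both cell types, whereas *Gm5930* (5.51 in mTECs, −0.49 in cTECs) and *Vsir* (−0.04 and 1.30) lie off the line.

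With every library taken at 4561199 counts, the number of genes with at least 3 counts was 15723 to 18896 in the late samples and 11667 to 18276, with a median of 16503, in the early ones. The late mean was higher by 1062 genes, a difference within the spread between samples at this count minimum (p = 0.244, two-sided exact permutation test over 7315 splits, which can give no p below 0.000137), and 14 of 18 early samples reached the lowest late value. With a minimum of 10 counts the difference was 1084 genes (exact permutation p = 0.0243), and without D16 it was 485 at 3 counts. The D10 and D12 samples had 15452 to 18276 genes and those of D0 to D8 11667 to 17095.

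**Figure D5:**
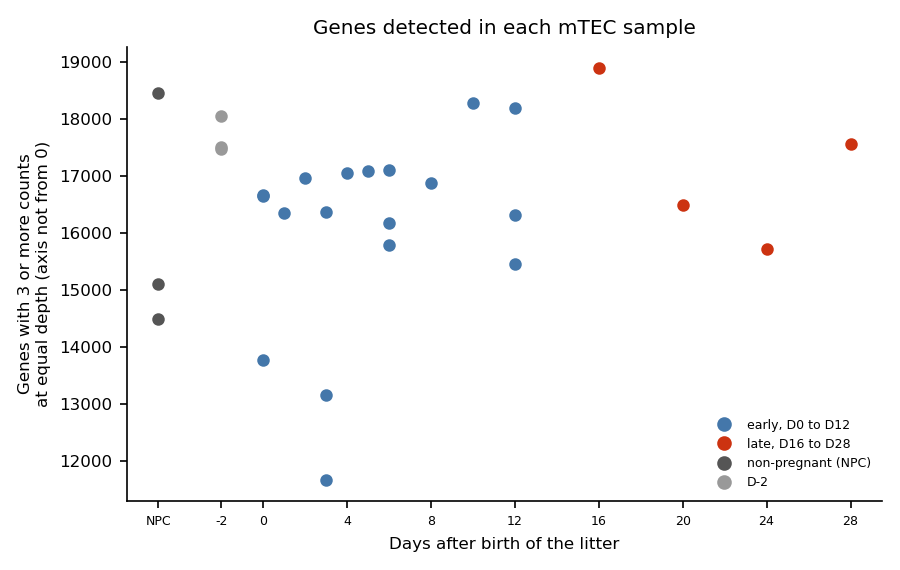
Expected number of genes with at least 3 counts at 4561199 counts per library, in each mTEC sample by day (the vertical axis does not start at 0). D16 is highest at 18896, and early samples span 11667 to 18276.

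Transcripts listed as markers of other cells were present, with the largest sum for the fibroblast list. The paper defines TECs as EpCAM+CD45− cells, and mTECs can themselves transcribe genes of other tissues. The part of other cells in these sums was not tested. The log2 difference of summed FPKM + 0.5 between late and early samples was 0.26 for thymocyte markers (p = 0.314), 0.52 for B cells (0.112), 0.91 for myeloid and dendritic cells (0.0383), 0.59 for endothelium (0.135), 0.54 for fibroblasts (0.00369) and 1.19 for erythroid cells (0.177), all from two-sided exact permutation tests. Only fibroblast markers passed after Benjamini-Hochberg adjustment over the 6 lists (adjusted p = 0.0222). Their sum was 737, 922, 712 and 758 FPKM late against a median of 529.8 (373 to 864) early, mostly *Acta2* (smooth muscle actin, 471 ± 60.1, SD, n = 4), while *Dcn* (decorin) was at 103 ± 31.0 against 98.6 ± 20.3 (SD, n = 18). The fibroblast sum was already 617 to 864 FPKM at D10 and D12, against 373 to 671 from D0 to D8. The median log2 fold change of its members was 0.77 for D10 and D12 against D0 to D8. It was 0.035 for the late samples against D10 and D12. Of the matrix genes above, *Col14a1* and *Fbn1* moved the same way as this sum, and their part in it was not tested. By members, 7 of 19 thymocyte, 5 of 9 B cell, 10 of 13 myeloid, 4 of 5 endothelial, 10 of 12 fibroblast and 4 of 5 erythroid markers tested were higher in the late phase, with medians of −0.32, 0.29, 0.80, 0.88, 0.67 and 1.29. Without D16 these were −0.55, −0.21, 0.38, 0.46, 0.58 and 0.51, so that of B cell markers changed sign, and the myeloid sum no longer had a p under 0.05 (0.61, exact permutation p = 0.183). Of these, only the cytokine receptor *Flt3* passed the looser threshold (0.85 to 3.44 FPKM late, log2 fold change 2.08, adjusted p = 0.0438).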

How the data were processed

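RNA of sorted mTECs and cTECs was made into stranded poly(A) libraries. Per the labels, the authors trimmed reads with Trimmomatic 0.35, aligned them to GRCm38 with STAR 2.5.1b and quantified genes with RSEM 1.2.28, and deposited expected counts, TPM and FPKM for each sample. TPM served only for an alternative.

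Expected counts were rounded and tested with limma-voom (limma 3.58.1, TMM factors of edgeR 4.0.16, R 4.3.3), on genes with a mean of at least 0.5 FPKM over the 28 mTEC samples. The test was fitted to the 22 samples of both phases and adjusted by Benjamini-Hochberg over all genes. The quasi-likelihood test of edgeR and DESeq2 1.42.0 were alternatives. Levels are FPKM, with 0.5 added to sums before log2. Late days have 1 sample each, so p-values measure the spread between mice and days together. On simulated data, limma-voom made more false calls than its threshold allows at both thresholds used. So did edgeR, with a smaller share of false calls than limma-voom at each.

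Genes named by rule were those called protein-coding genes with at least 5 FPKM whose phases did not overlap, called members of the lists, and otherwise up to 4 members a list with the highest FPKM. The other genes named were chosen after their values were seen. The members and the 30 lists were chosen with earlier results of these data known. The labels do not say whether cTEC and mTEC samples with the same number came from the same mouse. They were not treated as paired in the main fit. For 11 same-number pairs at D0, D3, D6 and D12, Pearson's r of deviations from the mean of the day was −0.095 to 0.099. Such values cannot exclude a shared mouse, and no late sample was among these pairs. Sequences are from RefSeq. A few genes are not reported here.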

Additional observations from a re-analysis of the deposited data

Results flagged for a closer look

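Among 82 values tested in the 4 late samples, 5 had a sample whose gap to its neighbour took more of the range, on the log2 scale, than Dixon's critical share, where chance gives about 1 in 20. A count of 5 is thus close to what chance gives. D16 was far above the other late samples for *Cd80* (0.872 of the range) and for the sum of the immediate-early genes (0.921, with 7946 FPKM against 2938 to 3177). D20 was far above the others for *Pigr* (0.861). D24 was far above the others for *Sc5d* (0.891) and the sum of the TNF receptor and NF-kB genes (0.921, with 2421 FPKM against 1608 to 1661).

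Of 18394 genes tested for the interaction of cell type and phase, 2 passed an adjusted p of 0.05 with a 2-fold difference (limma-voom). Both were among the 51 genes followed. These were in part chosen after their values were seen, so the presence of both among them is no separate result. For these 2 genes the late-minus-early difference itself differed between mTECs and cTECs. It was −1.32 on the log2 scale for *Vsir* (adjusted p = 0.00331) and 5.96 for *Gm5930* (adjusted p = 0.0164, past 0.05 only), which was listed at 0 in the cTEC means of both phases and passed the filter on low values through its late mTEC samples, so that its difference rests on the offset added to 0 (edgeR adjusted p = 1).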

How the results depend on the processing

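The number of genes that differed between the phases depended on nearly every choice, against 11 (10 higher, 1 lower) as reported. It was 2 (1 higher, 1 lower) with edgeR, 20 (3, 17) with DESeq2, 37 (35, 2) without TMM, 2 (2, 0) and 1 (1, 0) when limma-trend was run on log2 values with 0.5 or 0.1 added to the FPKM, 28 (25, 3) with sample quality weights, 143 (86, 57) without the filter on FPKM, and 184 (148, 36) at an adjusted p of 0.05. With the filter taken over the 22 samples, 2 were lower. It was 92 (39, 53) with one mean per time point, 159 (114, 45) with D12 as late, 64 (41, 23) without D12, 0 (0, 0) against D8, D10 and D12 only, 7 (2, 5) against early days with a single sample and 0 (0, 0) against early days with 3. Of settings chosen after seeing the data, it was 565 (477, 88) with D10 and D12 as late, 254 (202, 52) without them, 0 (0, 0) against them alone and 30 (26, 4) without the 3 farthest early libraries. With each of the 22 samples left out in turn, it was 2 to 46, with 2 to 41 higher and 0 to 13 lower. The cause of these differences was not tested. The median log2 fold change of all genes moved from −0.01 to 0.12 and 0.14 with limma-trend and to −0.29 without the filter.

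Of 51 genes followed, 45 kept their direction. Against D10 and D12 only, *Cd40* (−0.19), *Cd86* (−0.07), *Csn2* (−0.08), *Mki67* (−0.27) and *Fos* (0.05) reversed, as did *Cd40* (−0.08) and *Mki67* (−0.10) against D8, D10 and D12. *Vsir*, near 0 in mTECs, was 0.03 with DESeq2, 0.06 without TMM, 0.04 with quality weights, 0.07 against early days with 3 samples, 0.01 with D10 and D12 as late, 0.18 without D16 and D3 replicate 3, and 0 to 0.17 with single samples left out (0.01 without D3 replicate 3).

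The interaction passed for 0 genes with edgeR (814 at an unadjusted p under 0.05), 0 with single-sample early days, 0 to 2 with a late sample left out, and 2 with a replicate block of day and number. No paired analysis was possible for late against early itself, because each sample came from a single mouse and the phases were sampled on different days. The step at D10 and D12 had 41 genes with edgeR and 139 to 616 with a sample left out. With single samples left out, the log2 differences were 0.13 to 0.46 for thymocyte, 0.49 to 0.54 for B cell, 0.61 to 1.08 for myeloid, 0.22 to 0.88 for endothelial, 0.46 to 0.58 for fibroblast and 1.08 to 1.35 for erythroid markers. That of B cell markers was 0.82 against single-sample early days (exact permutation p = 0.00476). The difference in genes detected was 485 to 1543 with a late sample left out and 1084 at 10 counts (exact permutation p = 0.0243).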
